A study of Mus musculus with 8 samples.

Results

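The regions of mouse chromosome 13 enriched for histone H3 dimethylated (H3K9me2) or trimethylated (H3K9me3) at lysine 9 were examined by position, mark, genotype and single library. Every region on chromosome 13 in the deposited table of either mark was taken, after removal of repeated rows, with no filter on low values. This gave 764 of 16498 regions, made up of 125 of 1983 H3K9me2 regions and 639 of 14515 H3K9me3 regions, and all of them were tested. They were short, with a median width of 293 bp for H3K9me2 and 288 bp for H3K9me3, and covered 40.6 kb and 214 kb of the chromosome, whose length is 120421639 bp. Regions with a midpoint from 60 Mb to under 68 Mb are called the zinc-finger interval here, after the zinc-finger genes annotated there, and those of the last 1.42 Mb of the chromosome the distal interval.

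Chromatin immunoprecipitation and sequencing (ChIP-seq) was performed on mouse embryonic fibroblasts (MEFs) of C57bl6 background, immortalized with SV40 T antigen. The HAT1 KO cells came from 2 HAT1-/- embryos and the HAT1 WT cells from 2 HAT1+/+ embryos, all of mid-gestation, so every genotype rests on 2 lines that share the immortalizing antigen. Each mark was profiled in 2 KO and 2 WT libraries, 8 in all, with human Dbt immortalized myoblasts mixed in as a spike-in. The tables hold enriched regions and no transcripts, so neither the fibroblast identity nor the genotype label could be checked against them.

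Methylation of H3 lysine 9 marks silent chromatin, and the trimethylated form is bound by HP1 proteins in constitutive heterochromatin, which forms over satellites, transposable elements and some gene clusters. Clusters of KRAB zinc-finger genes, whose products bind DNA and recruit the methyltransferase SETDB1 through KAP1, are themselves known to carry H3K9me3 in many cell types. HAT1 acetylates newly made histone H4 before its deposition on replicating DNA. The comparisons below ask how the marks differ between KO and WT cells along this chromosome, and how alike the libraries of one genotype are.

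The named regions below are shown because the contrast between libraries turns on them. Sequences are of build mm10 (assembly GRCm38.p6, from RefSeq), plus strand, with starts counted from 1, and a region over 300 bases is shown by its central 300. Capitals mark bases that lie in at least 1 word of 32 bases found once in the genome on either strand, and lower case marks bases that lie only in repeated words.
Zfp640 chr13:66679347-66679646: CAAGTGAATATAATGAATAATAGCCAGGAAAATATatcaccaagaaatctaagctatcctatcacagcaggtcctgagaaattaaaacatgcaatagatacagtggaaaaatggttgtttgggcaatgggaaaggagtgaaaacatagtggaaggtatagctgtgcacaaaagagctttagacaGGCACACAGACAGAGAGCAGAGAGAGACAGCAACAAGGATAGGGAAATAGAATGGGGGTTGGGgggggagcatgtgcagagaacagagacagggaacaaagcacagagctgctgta
Gm48412 chr13:66779905-66780161: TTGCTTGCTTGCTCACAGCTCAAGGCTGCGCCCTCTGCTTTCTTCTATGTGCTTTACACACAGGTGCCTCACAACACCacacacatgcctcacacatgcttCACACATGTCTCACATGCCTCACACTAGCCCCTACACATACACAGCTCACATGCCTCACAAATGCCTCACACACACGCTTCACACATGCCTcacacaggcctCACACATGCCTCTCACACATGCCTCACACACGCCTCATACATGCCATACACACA
Gm36079 chr13:120025729-120026028: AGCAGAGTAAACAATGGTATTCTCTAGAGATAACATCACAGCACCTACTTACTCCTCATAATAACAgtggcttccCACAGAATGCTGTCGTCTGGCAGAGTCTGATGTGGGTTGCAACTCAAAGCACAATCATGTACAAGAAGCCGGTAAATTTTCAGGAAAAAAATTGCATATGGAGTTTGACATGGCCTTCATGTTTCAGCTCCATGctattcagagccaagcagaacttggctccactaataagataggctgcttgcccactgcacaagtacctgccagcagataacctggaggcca
The Zfp640 and Gm48412 regions, both of H3K9me3 in the zinc-finger interval, had the highest and the lowest WT library 2 over WT library 1 among the non-exonic named regions there. The Zfp640 stretch lies in an intron and had 32.7% of its bases in words found once, whereas the Gm48412 stretch had 86.8% and lies 0.763 kb from that lincRNA gene. The Gm36079 stretch is part of an H3K9me3 region that lies 0.212 kb from that gene and had the most negative fold change of the chromosome.

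The libraries were not of equal depth. The totals implied by the deposited values lay between 5422405 and 8421762 for the H3K9me2 libraries, and between 4198682 and 5810913 for those of H3K9me3. Reads in the chromosome 13 regions made up 0.134%, 0.119%, 0.0678% and 0.0902% of the H3K9me2 totals in KO libraries 1 and 2 and WT libraries 1 and 2, and the Wilson 95% intervals of these shares did not overlap. The shares for H3K9me3 were 0.467%, 0.450%, 0.302% and 0.394%, again with intervals that did not overlap. Such intervals cover counting error only. Both KO libraries thus gave a larger share of their reads to these regions than either WT library, for either mark, and the trimmed mean of M values (TMM) scaling used below removes such a shift where it is common to most regions.

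After TMM scaling, KO minus WT had a median of 0.01 on the log2 scale over the 125 H3K9me2 regions, beside 0.12 over all H3K9me2 regions. Over the 639 H3K9me3 regions it was -0.36, beside 0.05 over all. With library totals alone the chromosome's medians became 0.67 and 0.60, and those of all regions 0.77 and 1.00, so the sign of the chromosome's H3K9me3 median turned with the scaling. Relative to all regions, the chromosome's H3K9me3 median was lower by a like amount on both scales, -0.41 with TMM and -0.40 with library totals. No test was made of these medians, since 2 libraries against 2 cannot go below an exact permutation p of 0.333.

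Along the chromosome the difference was not even. In the 88 H3K9me2 regions outside both intervals the median TMM-scaled count was 19.4 and 20.3 in the KO libraries and 14.9 and 16.2 in the WT libraries. In the 28 H3K9me2 regions of the zinc-finger interval it was 7.10 and 5.42 in the KO libraries, 8.49 in WT library 1 and 43.0 in WT library 2. WT library 1 was therefore near the KO libraries there, and WT library 2 stood far above all of them.

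H3K9me3 showed the same order. The 174 regions of the zinc-finger interval had a median scaled count of 13.5 and 12.9 in the KO libraries, 18.5 in WT library 1 and 44.3 in WT library 2. In the 449 regions outside both intervals the 4 medians were 17.1, 14.4, 15.9 and 17.2, with no library standing apart.

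**Figure D1:**
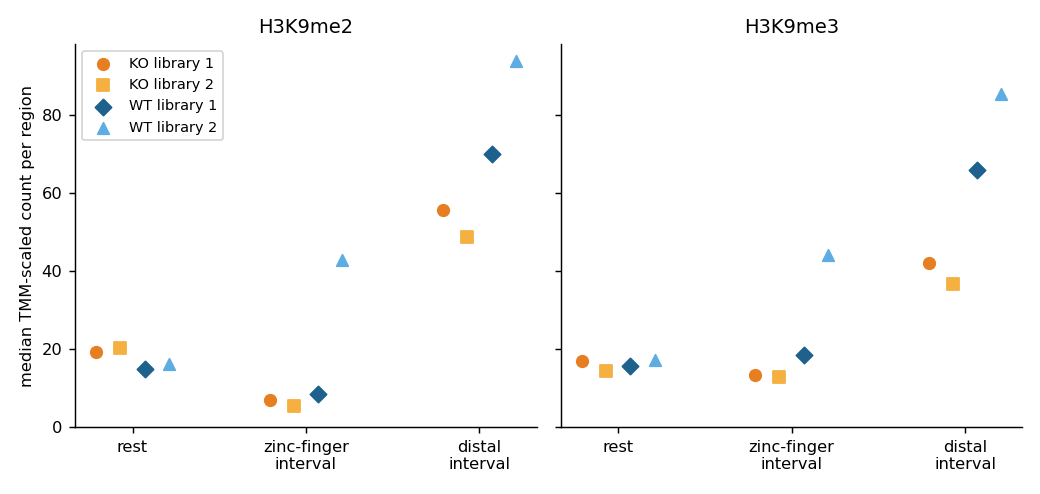
Median TMM-scaled count per region (linear axis from 0) in the rest of chromosome 13, the zinc-finger interval and the distal interval, for H3K9me2 (left) and H3K9me3 (right), with 1 point per library. In the zinc-finger interval WT library 2 lies at 43.0 and 44.3, while the other libraries lie between 5.42 and 18.5.

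The spread within each genotype was measured as the log2 difference between its libraries. The median of WT library 2 minus WT library 1 in the zinc-finger interval was 2.53 for H3K9me2 and 1.46 for H3K9me3, whereas KO library 2 minus KO library 1 was -0.05 and 0.06. Outside both intervals the WT medians were -0.02 and 0.19. Scaled counts of WT library 2 were more than 2 times those of WT library 1 at 27 of the 28 H3K9me2 regions of the interval and at 106 of its 174 H3K9me3 regions. The share of regions that did so over the whole genome was 21.6% for H3K9me2 and 18.8% for H3K9me3. Median reads at the 28 H3K9me2 regions were 7.5 and 6 in the KO libraries, 8 in WT library 1 and 38.5 in WT library 2. How regions entered the table is not given in the sources used here. Those that entered through WT library 2 alone would show the excess by that choice, which was not tested.

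**Figure D2:**
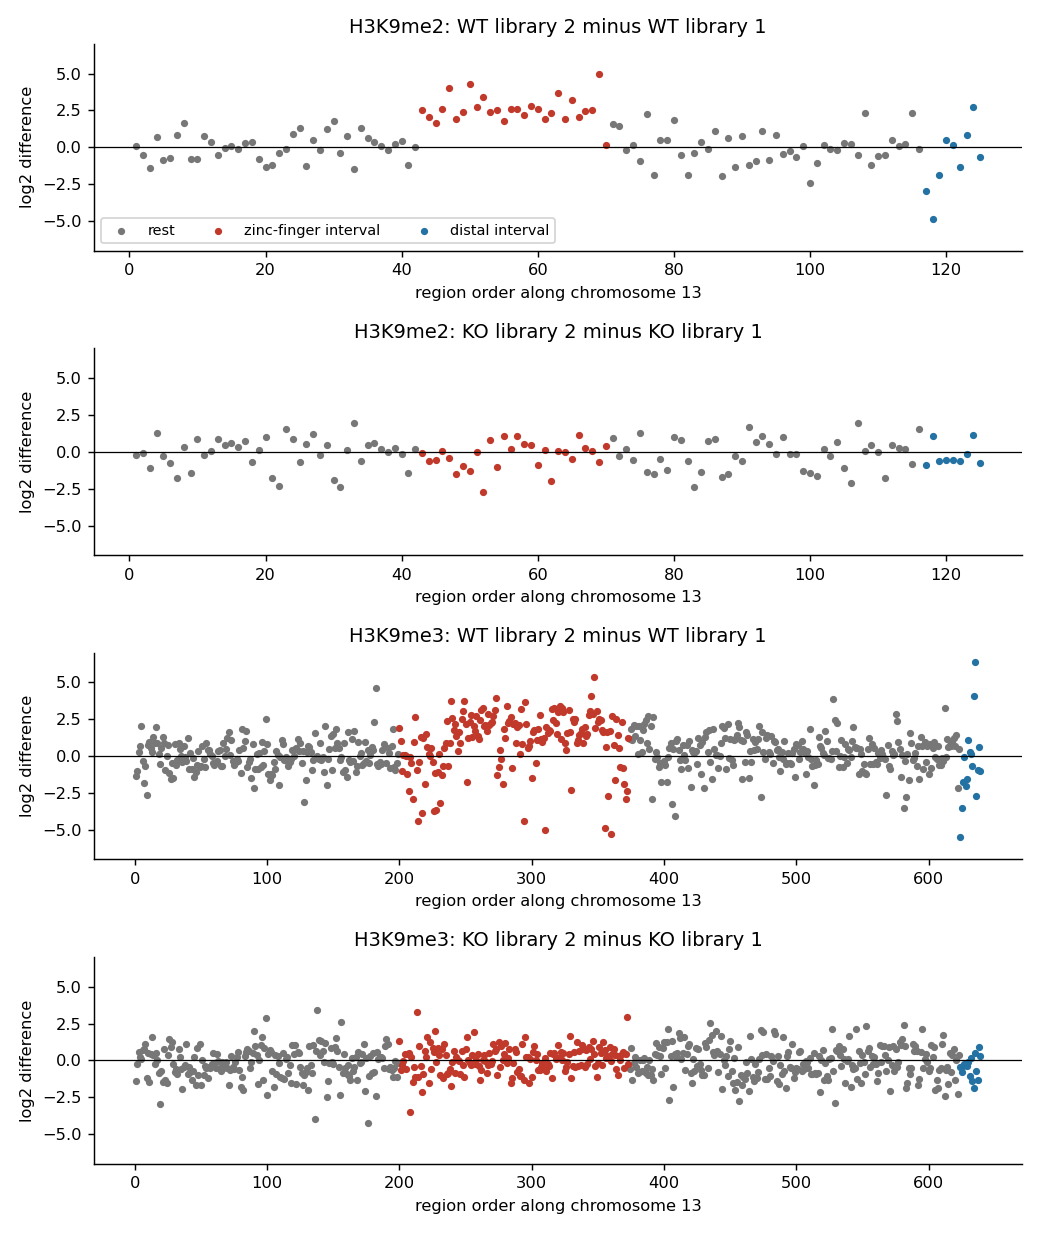
Log2 difference between the libraries of one genotype (TMM-scaled counts plus 1) for each region, in order along chromosome 13, with WT and KO panels for each mark and colours for the intervals. In the zinc-finger interval WT library 2 minus WT library 1 has medians of 2.53 and 1.46, with the H3K9me3 excess from 65 Mb to 67 Mb, and the KO libraries stay around 0 there, with medians of -0.05 and 0.06.

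For H3K9me3 the excess of WT library 2 had edges inside the interval. From 65 Mb to 67 Mb, 130 H3K9me3 regions held 1926 and 2343 reads in the KO libraries, 2030 in WT library 1 and 7687 in WT library 2. WT library 2 was the highest at 111 of them after scaling. The 25 H3K9me2 regions of the same stretch held 193, 178, 174 and 1123 reads, and WT library 2 was the highest at all 25.

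From 60 Mb to 65 Mb the picture was different for H3K9me3. Its 35 regions held 752 and 913 reads in the KO libraries, 728 in WT library 1 and 741 in WT library 2, and the median of WT library 2 minus WT library 1 was -0.42. At 14 of them WT library 1 was above 2 times WT library 2. The 2 H3K9me2 regions of that stretch held 17, 14, 15 and 75 reads and did show the excess, with a median of 2.28. The 9 H3K9me3 regions from 67 Mb to 68 Mb held 117, 157, 203 and 162 reads, with no excess in WT library 2.

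The excess returned just past the interval. From 68 Mb to 69 Mb, 19 H3K9me3 regions held 400 and 364 reads in the KO libraries, 314 in WT library 1 and 886 in WT library 2, and the median of WT library 2 minus WT library 1 was 1.79. WT library 2 was the highest at 17 of them. The 1 Mb bins with the most H3K9me3 regions were those that start at 66 Mb, with 72, and at 65 Mb, with 58. Both carried the excess, with medians of 1.68 and 2.09.

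Within the stretch from 65 Mb to 67 Mb the regions did not all follow WT library 2. The H3K9me3 region at 66679344 to 66679648, in an intron of Zfp640, held 6 and 13 reads in the KO libraries, 4 in WT library 1 and 86 in WT library 2. Zfp640 is annotated as a transcribed processed pseudogene. At 66779904 to 66780161, 0.763 kb from Gm48412, the KO libraries held 20 and 40 reads, WT library 1 held 21 and WT library 2 held 0. The first region was thus nearly restricted to WT library 2 and the second was present in every library but that one. For WT library 2 a count of 0 allows up to 3 reads. Just before that stretch, a region at 64928051 to 64928332, exonic in Gm4811, was also low in WT library 2, with 44, 26, 23 and 2 reads. WT library 2 had 0 reads at 8 of the 174 H3K9me3 regions of the interval and WT library 1 at 1.

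The DNA under these regions was highly repeated. The median share of 32-base words found more than once in the genome was 84.7% for H3K9me2 and 79.7% for H3K9me3 regions of the zinc-finger interval, against 15.0% and 32.4% outside both intervals and 22.1% and 25.8% over all regions. The median share of words with a further copy on chromosome 13 itself was 84.7% and 77.9%. In the interval, the 143 H3K9me3 regions with over 50% repeated words had a median WT library 2 minus WT library 1 of 1.68, and the 31 others of -0.02. Outside both intervals the 165 regions with over 50% repeated words had a median of 0.20 and the 284 others of 0.19. The H3K9me3 split also followed position, since 95.4% of regions from 65 Mb to 67 Mb and 42.9% of those from 60 Mb to 65 Mb had over 50% repeated words. For H3K9me2 in the interval, the 25 more repeated regions had a median of 2.54. The 3 others, too few to compare, had 0.19, 2.04 and 2.60, with 4.63%, 22.6% and 42.0% repeated words. How reads that fit several places were placed is not given in the sources used here, and its part in the excess was not tested.

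Other chromosomes also held stretches in which the WT libraries differed. Of 643 bins of 1 Mb with at least 8 H3K9me3 regions over all chromosomes, 47 had a median log2 difference between the WT libraries of at least 1 in size, 36 of them with WT library 2 higher and 11 with it lower. Among the 25 such bins of chromosome 13 there were 3 and 2, and 20 of the 36 lay on chromosome X. The KO libraries differed by as much in 7 bins. The bin of chromosome 12 that starts at 115 Mb also had WT library 2 higher, with 56 regions that held 934, 1085, 748 and 3264 reads in KO libraries 1 and 2 and WT libraries 1 and 2.

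The genotypes were then compared region by region with edgeR's quasi-likelihood test, fitted over all regions of a mark. At a Benjamini-Hochberg FDR under 0.05, 53 chromosome 13 H3K9me3 regions were called lower in KO and 0 higher, where 0.971% of all H3K9me3 regions were called lower and 0.0276% higher. DESeq2 also called 0 higher, and at an unadjusted edgeR p under 0.05 there were 4 higher and 152 lower, where 0.985% and 8.16% of all regions were. For H3K9me2, 5 regions were called lower and 2 higher, where the shares over all regions were 1.71% and 0.202%. The chromosome was chosen with these calls known, so the counts are a description. With library totals alone the calls were 11 lower and 2 higher for H3K9me3, where 0.103% and 0.785% of all regions were called, and 2 lower and 7 higher for H3K9me2, where 0.252% and 5.5% were. Separate embryos stand behind the libraries, and with 2 libraries per genotype the p-values reflect the spread between those alone.

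Of the 53 lower H3K9me3 calls, 46 lay in the zinc-finger interval, 2 in the distal interval and 5 in the rest of the chromosome. The bin that starts at 66 Mb held 26 and that at 65 Mb held 18. At 47 of the 53, WT library 2 was more than 2 times as high as WT library 1. The median log2 difference of the KO mean was -3.24 from WT library 2 and -0.97 from WT library 1. KO was still below WT library 1 at 49 of the 53, though by less. The 53 were chosen for low KO counts in these same libraries, so this partly follows from the choice. Over all regions of the zinc-finger interval the median of KO minus WT library 1 was -0.47 for H3K9me3 and -0.01 for H3K9me2.

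**Figure D3:**
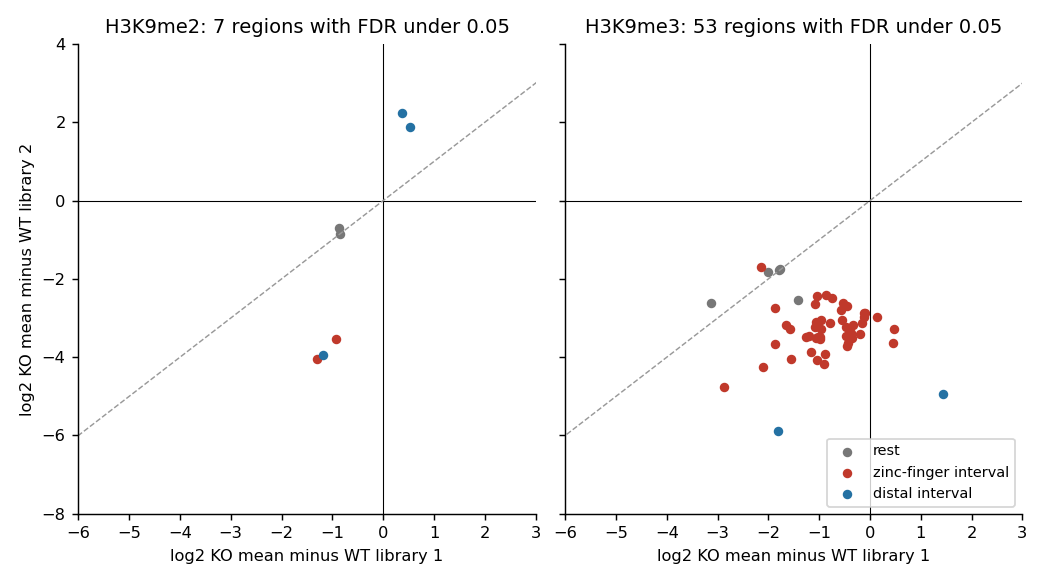
Log2 difference of the KO mean from WT library 1 (x axis) and from WT library 2 (y axis) at the 7 called H3K9me2 regions (left) and the 53 called H3K9me3 regions (right), coloured by interval, with a dashed line of equality. Most H3K9me3 calls lie well below the dashed line, with medians of -0.97 from WT library 1 and -3.24 from WT library 2.

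The calls depended on WT library 2. Fitted without it, 11 H3K9me3 regions of the chromosome were called lower, 4 of them among the 53, where 1.25% of all were called lower and 0.0689% higher. Fitted without WT library 1, 98 were called lower and 4 higher, which included 52 of the 53, where 2.85% and 0.255% of all were. DESeq2 called 18, all among the 53 and lower, where 5.43% of the regions it gave an adjusted p were. Fitted without KO library 1 or 2, 1 and 3 of the 53 were called, where 0.0207% and 0.0344% of all regions were called lower. The calls in the zinc-finger interval thus describe KO against WT library 2 more than KO against both WT libraries, and whether the excess belongs to the WT genotype or to that library cannot be told apart.

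The 5 lower H3K9me3 calls with the most negative fold changes among those with both KO libraries below both WT libraries were spread over both intervals. At 120025529 to 120026227, near Gm36079, the libraries held 6, 1, 10 and 194 reads in the order KO 1, KO 2, WT 1 and WT 2. The log2 fold change was -5.36 ± 0.63 (SE), with an edgeR FDR of 1.99e-13. Without WT library 2 it was -2.08 and not called (FDR 0.949), and DESeq2 did not call it (FDR 0.0808). The region at 60442357 to 60442775, 7.63 kb from Gm35333, held 0, 2, 9 and 38 reads (-4.98 ± 1.10, edgeR FDR 0.00165). WT library 1 also lay above both KO libraries after scaling, as the choice of these 5 required, and WT library 2 far above WT library 1. The regions near Gm48185 at 65650351 (6, 7, 20 and 97 reads) and near Gm10323 at 66858673 (12, 9, 21 and 131 reads) had log2 fold changes of -3.74 and -3.42. At 66429585, which overlaps Gm26754 and an exon of 2410141K09Rik, the reads were 9, 16, 15 and 161, with a log2 fold change of -3.41. At each of these last 3 regions the count of WT library 2 was more than 4 times that of any other library. Without WT library 2 the fold changes of these 3 were -2.27, -1.64 and -0.95 and that near Gm35333 was -3.70, and none of the 4 was called, with FDRs from 0.384 to 1.00. The regions near Gm48185 and Gm10323 and at 66429585 were also not called with either KO library left out, nor the Gm35333 region without KO library 1 (FDR 0.305), and the region at 66429585 was not called by DESeq2 (FDR 0.129). The Gm35333 value was -4.05 (FDR 0.102) with library totals alone. This region rests on 2 KO reads, with a KO to WT ratio of scaled reads of 0.0274 and an exact 95% counting interval of 0.00323 to 0.105, and no fold is given without KO library 2, since KO library 1 held 0.

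Both lower H3K9me2 calls of the zinc-finger interval had the same order. At 65681256 to 65681836, 7.78 kb from Gm19428, a transcribed processed pseudogene, the reads were 4, 4, 10 and 68, with a log2 fold change of -3.50 ± 0.86 (SE) and an edgeR FDR of 0.00710. At 66299946 to 66300346, in the lincRNA gene Gm26754, they were 5, 6, 10 and 62, with a log2 fold change of -2.94 ± 0.84 (SE) and an edgeR FDR of 0.0340. WT library 2 was far above the other 3 at both. The values fell in size to -1.59 (FDR 0.904) and -1.14 (FDR 0.987) without WT library 2. Without KO library 1 they were -3.54 and -2.85, and without KO library 2 -3.47 and -3.04. The Gm26754 region was not called with library totals alone (FDR 0.0915).

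A smaller set of lower calls was shared by both WT libraries. WT libraries within 2-fold of each other were found at 6 of the 53 H3K9me3 calls and at 2 of the 5 lower H3K9me2 calls. Those near Prl3c1, Ctsm-ps2, Gm47348 and Gm47947 follow from the rule for named regions, and the other 4 are named after their values were seen. With library totals alone all 8 log2 fold changes were still negative, and 0 of the 8 were called. The log2 fold changes lay between -2.84 and -0.77 without KO library 1, and between -3.56 and -0.80 without KO library 2. None of the 8 was called in those fits. Such fits called almost no region of the chromosome for either mark, so this says little about the 8.

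An intergenic H3K9me3 region lies 2.13 kb from Prl3c1, a gene of the prolactin family. It held 94 and 176 reads in the KO libraries and 283 and 297 in the WT libraries. Its log2 fold change was -1.76 ± 0.39 (SE), with an edgeR FDR of 0.00221, and -1.76 without WT library 2. The FDR was 0.811 without KO library 1 and 0.520 without KO library 2. The overlapping H3K9me2 region held 87, 77, 130 and 110 reads, with a log2 fold change of -0.78 and an FDR of 0.291, which did not pass. With library totals alone the H3K9me3 value was -0.74.

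At an intergenic region 5.79 kb from the pseudogene Ctsm-ps2 of the cathepsin family, the H3K9me3 reads numbered 46 and 63 for KO against 152 and 120 for WT. The log2 fold change was -1.96 ± 0.45 (SE), with an edgeR FDR of 0.00365. It had the most signal of the interval's H3K9me3 regions.

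The H3K9me3 region at 89570424 to 89570677 lies in an intron of Hapln1, which encodes a link protein that joins proteoglycans to hyaluronan in the extracellular matrix. Its reads numbered 57 and 88 for KO against 157 and 166 for WT. The log2 fold change was -1.80 ± 0.44 (SE), with an edgeR FDR of 0.00736. None of its words was repeated. The overlapping H3K9me2 region held 117, 108, 208 and 128 reads, with a log2 fold change of -0.80 and an FDR of 0.154.

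An intronic H3K9me3 region of Lyst, which encodes a regulator of lysosome size, held 26, 21, 62 and 59 reads, with a log2 fold change of -1.97 and an edgeR FDR of 0.0271. Near Gm33684 the reads were 3, 6, 30 and 22, and near Gm48361, in the zinc-finger interval, 5, 16, 25 and 50. Without WT library 2 their log2 fold changes went from -3.14 to -3.39 and from -2.47 to -1.95, and neither was called, with FDRs of 0.134 and 0.604. The Gm33684 region was not called without WT library 1 either (FDR 0.457). The Prl3c1, Ctsm-ps2, Hapln1 and Lyst regions were called with either WT library left out, but not with either KO library left out.

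The H3K9me2 calls with like WT libraries were smaller in size and rested on more reads. At 39423673 to 39424119, 16.4 kb from the lincRNA gene Gm47348, the KO libraries held 356 and 371 reads and the WT libraries 583 and 493. The log2 fold change was -0.80 ± 0.22 (SE), with an edgeR FDR of 0.0298, and no word of the region was repeated. At 58768232 to 58768671, within the lincRNA gene Gm47947, the reads were 169, 200, 291 and 276, and the log2 fold change was -0.86 ± 0.25 (SE), with an edgeR FDR of 0.0386. Both were also called by DESeq2, and with library totals alone they were -0.13 and -0.19. Without WT library 1 they were -0.71 and -0.85, and without WT library 2 -0.98 and -0.96. Leaving out KO library 1 gave -0.80 and -0.77, and leaving out KO library 2 gave -0.80 and -0.95.

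**Figure D4:**
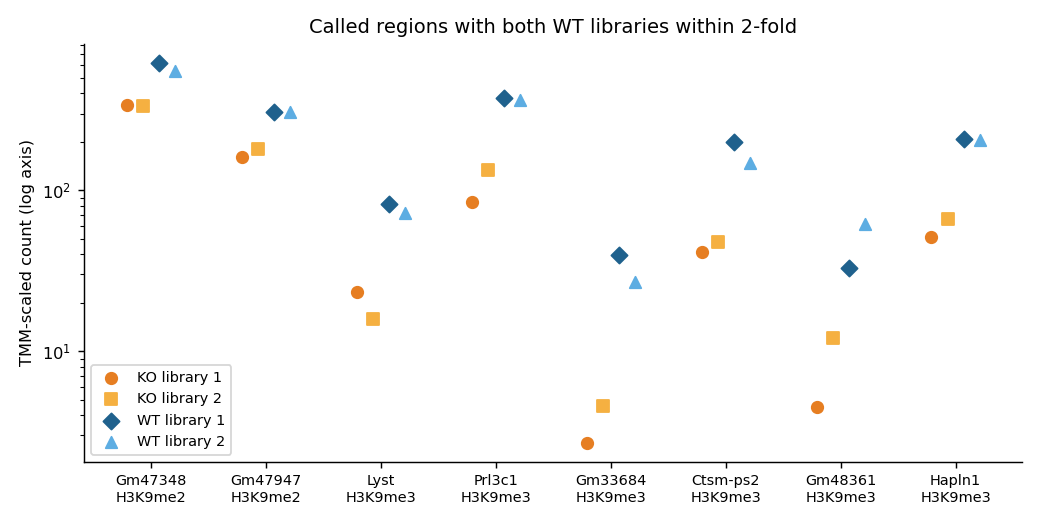
TMM-scaled counts (log axis) of each library at the 2 H3K9me2 and 6 H3K9me3 regions called lower in KO whose WT libraries lie within 2-fold of each other, labelled by the nearest or overlapping gene. At all 8 regions both KO libraries lie below both WT libraries.

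At the distal end, WT library 2 was high at some regions and low at others. 6 H3K9me2 and 7 H3K9me3 regions overlapped Tmem267, which encodes a transmembrane protein. At 119488410 to 119489298, which overlaps an exon, H3K9me3 held 121 and 104 reads in KO, 200 in WT library 1 and 4 in WT library 2. At an intronic region it held 903, 822, 910 and 283 reads. At 119601849 to 119603025 it held 1251, 1168, 1109 and 412. WT library 2 was the lowest at all 3.

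Between the last 2 of these regions lay a region at which WT library 2 was near WT library 1. The H3K9me3 region at 119597873 to 119599257, with the most signal of the distal interval, held 1690 and 1735 reads in the KO libraries against 1540 and 1620 in those of WT, and its TMM-scaled counts were 1520, 1314, 2036 and 1995. Its log2 fold change was -0.51, with an edgeR FDR of 0.688, and it turned to 0.50 (FDR 0.276) with library totals alone. The low counts of WT library 2 were therefore not shared by all regions of the gene.

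H3K9me2 followed the same outline at Tmem267. An intronic region held 578 and 384 reads in KO, 325 in WT library 1 and 84 in WT library 2, and was called higher in KO, with a log2 fold change of 1.02 ± 0.23 (SE) and an edgeR FDR of 0.00308. That at 119601850 to 119602975 held 859, 581, 438 and 162 reads and was also called higher, at 1.05 ± 0.22 (SE), with an edgeR FDR of 0.00126. Without WT library 2 the values were 0.27 and 0.43, and DESeq2 called neither region (FDRs 0.542 and 0.391). The values were 2.25 and 1.89 without WT library 1, 0.66 and 0.70 without KO library 1, and 1.32 and 1.33 without KO library 2. At 119598888 to 119599242 the reads were 729, 517, 338 and 354, with like WT libraries, and the log2 fold change was 0.62 (edgeR FDR 0.154). It was called higher with library totals alone, at 1.27 (FDR 8.05e-05), and without KO library 1 it was 0.31.

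Closer to the chromosome end the order turned. The H3K9me3 regions at 120025529 and 120026380, by and in Gm36079, held 194 and 244 reads in WT library 2 and at most 14 in any other library. The H3K9me2 region at 120026713 to 120027067 held 2, 6, 9 and 63 reads, with a log2 fold change of -3.40 ± 0.88 (SE) and an edgeR FDR of 0.0120. The fold change was -1.45 without WT library 2, -2.85 without KO library 1 and -4.31 without KO library 2. By contrast, an H3K9me3 region 7.12 kb from Gm21762 held 41, 29, 22 and 3 reads. The distal medians of KO minus WT, 0.49 for 9 H3K9me2 regions and -0.51 for 16 H3K9me3 regions, thus combine regions in which WT library 2 lay on opposite sides.

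The marks were compared where they overlapped by at least 1 bp. Of the H3K9me2 regions, 59 of 125 (47.2%) overlapped an H3K9me3 region, and 58 of 639 H3K9me3 regions (9.08%) overlapped an H3K9me2 region. The share for H3K9me2 was 24 of 28 in the zinc-finger interval, 9 of 9 in the distal interval and 26 of 88 elsewhere.

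In 57 pairs that overlapped one to one, WT library 2 minus WT library 1 had a Pearson r of 0.816 and a Spearman rho of 0.820 between the marks. The sign was the same in 46 of 57 pairs, including 24 of 24 in the zinc-finger interval and 7 of 7 in the distal interval, but 15 of 26 elsewhere. KO library 2 minus KO library 1 had an r of -0.16 over the same pairs. Within the zinc-finger interval alone the WT r was 0.05. These values run across regions, which share libraries, and neighbours share sequence. The labels do not say that libraries of the same number came from the same embryo for both marks. The sign of the difference was thus shared at the pairs of both intervals. Regions that entered the tables through WT library 2 alone would share a positive sign by that choice, which was not tested.

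**Figure D5:**
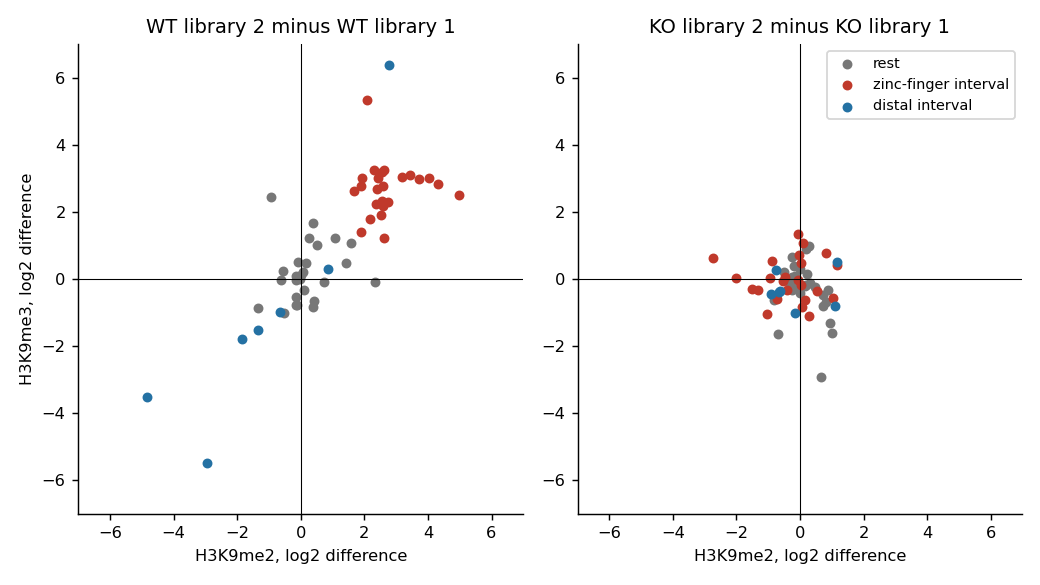
Log2 difference between libraries of one genotype for H3K9me2 (x axis) and H3K9me3 (y axis) at 57 overlapping pairs, for WT (left) and KO (right), coloured by interval. The WT differences spread along the diagonal, with r 0.816, and the KO differences gather around 0, with r -0.16.

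Whether the KO against WT change differed between the marks was tested as a mark by genotype interaction in edgeR. It passed an FDR under 0.05 at 0 of the 57 pairs, and 0% of all pairs did. At an unadjusted p under 0.05 it passed at 2 pairs, where 6.45% of all pairs did, and the lowest FDR was 0.663. A difference between the marks was not detectable with these libraries.

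The region with the most signal of either mark outside both intervals was not called with TMM scaling. At 3372865 to 3373756, near Gm16505, H3K9me2 held 1393, 1358, 1065 and 704 reads in the order KO 1, KO 2, WT 1 and WT 2, with a log2 fold change of 0.41 and an edgeR FDR of 0.529. It was called higher in KO with library totals alone, at 1.10 (FDR 0.000872), and without WT library 2 it was 0.07. The overlapping H3K9me3 region held 1367, 1348, 1255 and 660 reads, at -0.14 and an FDR of 0.965, and at 0.90 (FDR 0.101) with library totals alone. WT library 2 was the lowest for both marks. In Gm36264 the H3K9me3 reads at 9011575 to 9012169 were 625, 590, 431 and 436. After TMM scaling these were 562, 447, 570 and 537, with a log2 fold change of -0.13 and an FDR of 0.968, and with library totals alone it was 0.88 (FDR 0.125). The overlapping H3K9me2 region held 323, 284, 173 and 275 reads, at 0.20 and an edgeR FDR of 0.792. With library totals alone it was called higher in KO, at 0.82 (FDR 0.0317). In an intron of Jarid2, which encodes a subunit of Polycomb repressive complex PRC2, H3K9me3 held 260, 328, 335 and 227 reads, at a log2 fold change of -0.58 and an FDR of 0.711. This region was called lower without WT library 2, at -0.86 (FDR 0.0254), without WT library 1 it was -0.23, and with library totals alone it was 0.45 (FDR 0.370).

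Gene families clustered on the chromosome were read through the regions that overlap their members. Of 46 zinc-finger genes, 32 in the interval, 9 overlapped 17 H3K9me3 regions, of which 6 were called lower and 0 higher, where 0.971% and 0.0276% of all H3K9me3 regions were. For H3K9me2, 2 of the genes overlapped 5 regions, of which 0 were called by edgeR and 3 had an unadjusted p under 0.05, as did 9.33% of all H3K9me2 regions. All 6 H3K9me3 calls fell in Zfp640, whose 8 H3K9me3 regions together held 94, 125, 88 and 726 reads. Its 4 H3K9me2 regions held 33, 39, 35 and 210. WT library 2 alone was high in this gene for both marks. The 6 calls rest on that library. DESeq2 called 1 of the 6, but it gave an adjusted p to only 1289 of the 14515 H3K9me3 regions. The called region at 66679344 had none, and its log2 fold change was 0.53 without WT library 2. The median KO minus WT of the family's H3K9me3 regions was -1.79, beside 0.05 over all regions.

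WT library 2 was also the highest in Zfp738, with 4, 7, 4 and 25 H3K9me3 reads, but not in every zinc-finger gene. Zfp729a held 32, 42, 41 and 42 H3K9me3 reads in 2 regions, and Zfp935 held 22, 64, 32 and 35 in 1. Zkscan8 and Zfp184, in the cluster near the histone genes, held 17, 24, 45 and 38 and 22, 14, 47 and 31 reads, with KO below WT in every library and FDRs of 0.148 and 0.133. Codons for the linker HTGEKP that joins zinc fingers were found, on either strand, in 4 of the 639 H3K9me3 regions and 24 of all 14515, and in 0 of the 125 H3K9me2 regions. Of the 4, 1 lay among the 174 regions of the zinc-finger interval and 3 lay outside both intervals. From 65 Mb to 67 Mb there were 0.

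The other families overlapped few regions, as did the genes of the chromosome at large, of which 5.68% of 2502 overlapped an H3K9me3 region and 1.72% an H3K9me2 region. Gene lengths differ between the families and were not matched. Of 82 vomeronasal receptor genes, which serve pheromone sensing, 3 overlapped an H3K9me3 region and 1 an H3K9me2 region. Of 56 core histone genes, Hist1h2be alone overlapped an H3K9me3 region, with 11, 7, 25 and 8 reads. Of 26 prolactin-family genes 1 did, Prl2c3, with 65, 56, 34 and 48 reads. None of the regions of these families was called. Serpin, cathepsin, Naip, T cell receptor gamma and Tcstv genes, 16, 13, 6, 15 and 2 in number, overlapped 0 regions of either mark.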

How the data were processed

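Per the labels and methods, the authors mapped read pairs with BWA 0.7.12 against build mm10 and found peaks with MACS2 2.1.0, and DiffBind is also named. Whether peaks were called per library or on pooled libraries, and the filters on mapping quality and duplicates, are not given in the sources used here. The deposited tables, 1 per mark, hold read counts per region and library, RPM values made by the authors as count plus 1 over a library total, and a fold enrichment ratio, RPM over region width times a constant, which the deposited values fit with width as end minus start, so starts are counted from 0. No source used here says whether those totals include a spike-in correction. The authors' fold changes, p-values and q-values were not used. Repeated rows were removed, 62 of 2045 and 314 of 14829.

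Counts were tested with edgeR 4.0.16 (R 4.3.3; glmQLFit, glmQLFTest, library totals from RPM, TMM factors, no filter, no block), with two-sided Benjamini-Hochberg adjustment over all regions of a mark. Log2 differences used a pseudocount of 1, and TMM-scaled counts are counts divided by effective library size and brought to the mean size of the mark. DESeq2 1.42.0 was an alternative. Overlaps came from bedtools 2.31.1, genes from GENCODE M21, and words of 32 bases were counted over both strands of GRCm38.p6. Named regions were, per mark, up to 5 calls in each direction with both KO libraries on one side of both WT libraries, the strongest region of each interval, the 3 strongest shared pairs not already named, the 3 highest and 3 lowest WT library 2 over WT library 1 ratios with a mean of at least 20 counts, and the fullest 1 Mb bins. Members, lists and rules were chosen with earlier results of these data known. The sequences of some named regions are not reported here.

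On simulated counts, edgeR recovered 98% of 16-fold and 0% of 4-fold changes among 1983 H3K9me2 regions, and 91.5% and 4% among 14515 H3K9me3 regions, with 0 calls when nothing was changed. The simulated counts had a common spread, estimated from these libraries, and no library set apart. Under that setting 4-fold changes were seldom recovered. Smaller changes were called in the data, such as -0.80 and -0.86 on the log2 scale for H3K9me2. Analyses used Python 3.11.15.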

Additional observations from a re-analysis of the deposited data

How the results depend on the processing

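The count of H3K9me2 calls on chromosome 13, 7 with all libraries, was 2 with DESeq2 and 3 at an FDR under 0.01. Shares over all H3K9me2 regions are not given for these settings, so the counts are not read as particular to the chromosome. The count fell without either KO library or WT library 2 and rose without WT library 1. Without KO library 1, H3K9me2 regions with log2 fold changes from -3.54 to 0.70 had the same FDR, so a missing call there says little about a region. The 53 H3K9me3 calls became 13 with library totals alone and 18 with DESeq2, and ranged from 1, without KO library 1, through 3, without KO library 2, and 11, without WT library 2, to 102, without WT library 1. A genotype left with a lone library was assumed to vary like the other. The replicate block, with library number as a term, gave 29 H3K9me3 calls on the chromosome, and its share over all regions is not given. Libraries of the same number did not deviate together (r 0.030 for H3K9me2 and 0.0042 for H3K9me3), so the numbers were not taken as pairs. With library totals alone the medians of KO minus WT were 0.67 (chromosome, H3K9me2), 1.17 (distal interval, H3K9me2), 0.60 (chromosome, H3K9me3), -0.57 (zinc-finger interval, H3K9me3) and 0.49 (distal interval, H3K9me3), and the last was -0.30 with TMM and an interval that started 1 Mb earlier. Leaving out 1 library in turn gave medians from -0.42 to 0.10 (chromosome) and -2.62 to -0.10 (zinc-finger interval, the last without WT library 2) and 0.11 to 0.85 (distal interval) for H3K9me2, and from -0.57 to -0.16, -2.16 to -0.46 and -0.69 to -0.088 for H3K9me3. With a library left out, the log2 fold change turned sign at 10 named regions, of which 6, 2 of H3K9me2 and 4 of H3K9me3, were called with all libraries or with 1 left out. Of the 6, it ranged from -3.77 (without WT library 1) to 0.53 (without WT library 2) at the intronic Zfp640 region, from -5.06 (without WT library 1) to 1.72 (without WT library 2) in Gm36079, and from -1.48 (without WT library 2) to 4.20 (without WT library 1) at the exonic Tmem267 region. Fits that lacked WT library 1 or WT library 2 gave 3.21 or -0.07 at the H3K9me2 region that overlaps the last and -2.63 or 1.15 at the H3K9me2 region at 66497374, 5.10 kb from Gm26806. The region near Gm48412 turned to -0.18 without WT library 2. No fold is given for it with WT library 1 left out, since WT library 2 held 0 reads. The cause of these changes beyond the library left out was not tested. With 2 libraries per genotype, low read counts at most regions, and 1 WT library apart, small changes could not be resolved at most regions of this chromosome.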
